A study of Mus musculus with 8 samples.

Results

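The genes of the inhibin and activin subunits (Inha, Inhba and Inhbb), of the activin-binding proteins follistatin and follistatin-like 3 (Fst and Fstl3), and of anti-Müllerian hormone and its receptor (Amh and Amhr2) were followed in whole testes of mice in which Dmrt1 can be deleted. Every probe set carrying only the symbol of 1 of these 7 genes was taken, which gave 12 of the 45101 probe sets on the array. The testes came from male mice at postnatal day 28 on a mixed C57BL6/6J and 129 background. All 8 samples, the controls included, carried Dmrt1 flox/flox, the conditional allele that Cre recombinase can delete. The 2 control testes had no Cre, 2 carried Cre driven by the promoter of Dhh (Dhh-Cre), and 4 carried Cre driven by the promoter of Nr5a1, also named Sf1 (Sf1-Cre). Both promoters are described by the submitters as restricted to Sertoli cells, the somatic cells that nurse germ cells in the testis tubule. Dmrt1, a transcription factor gene, is also active in germ cells, which neither driver is described as reaching. The labels call the samples biological replicates and give 1 array for each.

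Inhibins pair the alpha subunit made from Inha with a beta subunit made from Inhba or Inhbb, whereas activins are dimers of beta subunits. Activins signal through paired type I and type II receptor kinases to Smad proteins and raise the release of follicle-stimulating hormone by the pituitary. Inhibins oppose them, aided by the co-receptor betaglycan (Tgfbr3), and follistatins bind activins and keep them from their receptors. In the testis Sertoli cells make inhibin, mainly inhibin B, and in the ovary granulosa cells make inhibins and activins. Anti-Müllerian hormone from Sertoli cells removes the Müllerian ducts of the male fetus, and its gene falls silent as Sertoli cells mature. Its receptor gene Amhr2 is active in both Sertoli and granulosa cells.

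Levels are given as the log2 of the deposited intensity, and a probe set below 4 on that scale (16 in intensity), called the floor here, was not read as measured. A probe set was tested if at least 2 arrays reached the floor, and adjusted p under 0.05 counted as passing. Of the 12 probe sets, 8 were tested, from 6 genes. The only Amh probe set and the second probe sets of Inhba, Inhbb and Fst stayed under the floor in every array.

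Dmrt1 itself lay at 8.50 and 8.76 in the control testes, at 10.43 and 9.94 in the Dhh-Cre-labelled arrays, and at 7.10, 7.89, 7.63 and 7.53 in the Sf1-Cre arrays. It fell in Sf1-Cre (log2 difference from control -1.09 ± 0.25 SE, adjusted p = 0.00368). It was higher than control in the Dhh-Cre-labelled arrays (1.55 ± 0.28 SE, adjusted p = 0.00117), which as deposited goes against that label. Under the 6 other scalings described below Dmrt1 lay below control in all 6 in Sf1-Cre, and in the Dhh-Cre-labelled arrays above it in 2 and below it in 4. The sources used here do not say where the 1 Dmrt1 probe set lies relative to the part that Cre removes. That these arrays carry a deletion by Dhh-Cre is taken below from the label alone. They did differ widely from control, with correlations of 0.804 to 0.838 to the control arrays. Of 11 tested markers of spermatogonia, which are early germ cells, 6 were higher and 2 lower than control in them, and 3 and 5 in Sf1-Cre. The medians of 0.76 and -0.46 lay below 0 under all 6 other scalings. Whether these cells bear on the Dmrt1 level was not tested.

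The 2 control arrays had median intensities of 13.7 and 14.1, and the mutant arrays of 15.2 to 15.9. Correlations of log2 levels between arrays were 0.980 to 0.994 within groups and 0.804 to 0.887 between control and mutant arrays. Of 19 listed genes of spermatids, the haploid germ cells, 18 were lower than control in both mutant groups, with median log2 differences of -4.96 in Sf1-Cre and -6.33 in the Dhh-Cre-labelled arrays, and the medians were below 0 under all 6 other scalings. In whole tissue, more cells of a type and more RNA per cell cannot be told apart. A level is therefore a share of the RNA put on the array, and how the arrays are scaled sets where 0 lies.

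For that reason 6 other scalings are used below, 3 of them (those by median change) added after the data were seen. Each array was centred on a list of genes, either on the median of their levels or on the median of their changes. The lists were 12 housekeeping genes, Sertoli markers, and the markers of peritubular muscle and endothelium together. All 12 housekeeping genes had a control mean at the floor or above. So did 15 of 17 tested Sertoli, 7 of 11 peritubular and 3 of 8 endothelial markers, so the last list rests partly on control values under the floor. Centring on the median change took 0.87, 0.65 and 1.38 off every log2 difference between Sf1-Cre and control, and 0.815, 1.42 and 1.70 off those for the Dhh-Cre-labelled arrays. Centring on the median level took off more, 1.75, 1.66 and 3.36 in Sf1-Cre and 1.71, 1.95 and 3.29 in the Dhh-Cre-labelled arrays. The last of these puts the median of all tested probe sets at -3.0 and -2.72, against 0.36 and 0.57 as deposited. Of all probe sets called against control, 59.2% were higher in Sf1-Cre and 63.0% in the Dhh-Cre-labelled arrays as deposited, and 2.57% to 39.6% and 1.47% to 40.7% under these scalings. Between the mutant groups 47.8% of those called were higher in Sf1-Cre as deposited, and 39.3% to 95.3% under them.

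Among the 5 members whose promoters could be searched, only Amhr2 had a match to a searched motif. Promoters of these 5 (Inha, Inhba, Inhbb, Fstl3 and Amhr2) were taken from RefSeq (GRCm38.p6), and the 250 bases before each start were searched on both strands. The sources used here gave no promoter for Fst and Amh. The motifs were AAGGTCA (the site bound by NR5A1 and NR5A2), GATAA (GATA factors), AACAAT (SOX factors), TGACG (part of the cAMP response element), GTAAACA (forkhead factors) and ACANTGT (the core bound by DMRT proteins). The 2 windows below are shown because the genes of the NR5A and GATA factors are among those measured here, with the match in capitals and 10 flanking bases on each side, read 5′ to 3′ on the strand of the gene. The GATA match reads GATAA on the opposite strand.
Amhr2 NR5A window, chr15:102445126-102445152 (+): accttcttccAAGGTCAgtaggggtag
Amhr2 GATA window, chr15:102445158-102445182 (+): tcgtagtcaaTTATCacagggttct
The first base of the NR5A match lies at -231 and that of the GATA match at -199 from the start used, which is not the outermost start annotated for Amhr2. Of 32851 promoters of this length, 4.08% held AAGGTCA and 22.58% held GATAA. The other 4 motifs occurred in 9.42% (AACAAT), 17.77% (TGACG), 3.17% (GTAAACA) and 6.47% (ACANTGT) of them. A match is a description of the letters in this window and says nothing on binding.

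As deposited, the members were higher in the mutant testes. All 8 tested probe sets were higher in Sf1-Cre than in control and 7 of 8 in the Dhh-Cre-labelled arrays, by limma with Benjamini-Hochberg adjustment over all 25761 probe sets tested. That is read against a high background, since 45.9% of all tested probe sets were called higher in Sf1-Cre and 49.1% in the Dhh-Cre-labelled arrays, and 77.6% and 78.0% were called in either direction. Fst and Inhba were under the floor in both controls and passed the filter only through mutant arrays, so their calls add nothing to the count. The other 6 probe sets (of Inha, Inhbb, Fstl3 and Amhr2) were at the floor or above in both controls, and all 6 were called higher in each group. They are not 6 separate genes, since several are of Amhr2, and the members were chosen with earlier results of these data known. Of all 20885 probe sets measured in both controls, a subset set after the data were seen, 38.5% were called higher in Sf1-Cre and 41.5% in the Dhh-Cre-labelled arrays. The median difference of the 6 was 1.61 in Sf1-Cre and 2.18 in the Dhh-Cre-labelled arrays, where that of the 20885 was -0.0008 and 0.20. Both comparisons use the same 2 control arrays. Each of the 6 probe sets measured in both controls was also higher in every mutant array than in both controls. Over all tested probe sets this held for 49.5% in Sf1-Cre and 57.1% in the Dhh-Cre-labelled arrays. That share includes probe sets under the floor in control, so it is not matched to the 6. Between the mutant groups 1 of 8 was called, Fst, where 21.4% of all tested probe sets were called and 10.2% were called higher in Sf1-Cre. Every Sf1-Cre array lay above both Dhh-Cre-labelled arrays in 21.5% of all tested probe sets and below both in 23.8%.

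**Figure D1:**
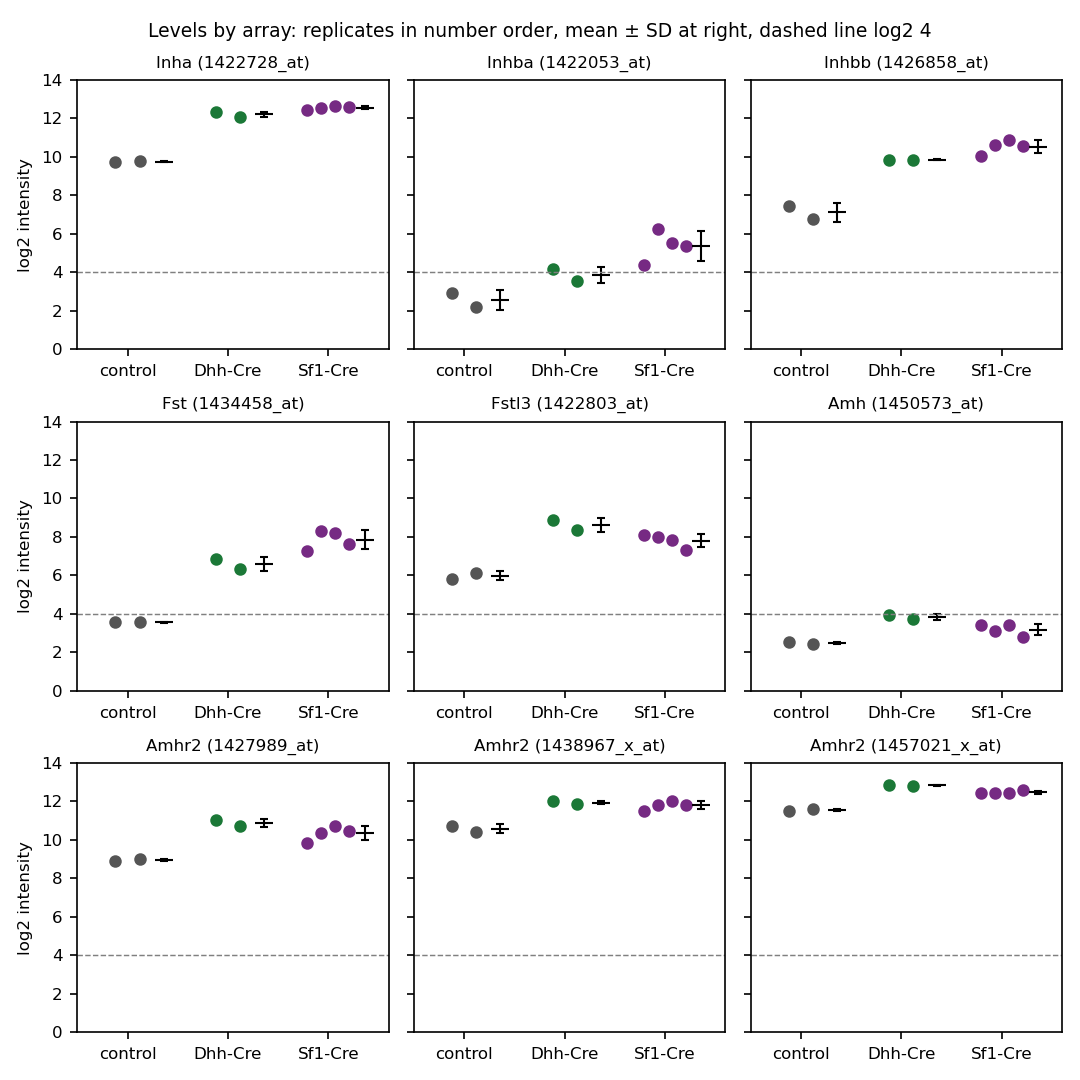
Log2 intensity (vertical axis) of each array for the 8 tested probe sets and for Amh, by group. Points are arrays, bars are the group mean ± SD (n = 2, 2 and 4) and the dashed line is the floor at 4. Amh stays under the line in all 8 arrays, and each tested probe set is higher in every mutant array than in both controls. The controls of Fst and Inhba lie under the line, and these 2 were tested through mutant arrays only.

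The inhibin alpha gene Inha rose in both mutant groups. Its level was 9.74 and 9.79 in the control testes, 12.31 and 12.10 in the Dhh-Cre-labelled arrays, and 12.45, 12.56, 12.66 and 12.61 in Sf1-Cre. The 3 groups do not overlap, and all 4 Sf1-Cre arrays lie above both Dhh-Cre-labelled arrays. Inha rose 6.99-fold in Sf1-Cre (2.80 ± 0.14 SE, adjusted p = 1.2e-06) and 5.44-fold in the Dhh-Cre-labelled arrays (2.44 ± 0.16 SE, adjusted p = 6.68e-06). Under the other scalings its difference from control ran from 2.15 down to -0.55 in Sf1-Cre and from 1.63 down to -0.85 in the Dhh-Cre-labelled arrays. The sign turned under 1 of the 6, the median level of the peritubular and endothelial lists, where the lower value passed the test in both groups. The step between the mutant groups, 0.36 (95% interval 0.04 to 0.69, adjusted p = 0.107), did not pass.

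Inhbb, which encodes the beta subunit of inhibin B and activin B, lay at 7.47 and 6.77 in the control testes, at 9.87 and 9.84 in the Dhh-Cre-labelled arrays, and at 10.05, 10.64, 10.86 and 10.57 in Sf1-Cre. Again no group overlapped another, and the controls were the most spread (SD 0.49, n = 2). Of these 8 values 6 were deposited to 3 significant digits. Inhbb rose 10.7-fold in Sf1-Cre (3.41 ± 0.27 SE, adjusted p = 1.01e-05) and 6.67-fold in the Dhh-Cre-labelled arrays (2.74 ± 0.31 SE, adjusted p = 8.07e-05). It stayed above control under 6 of 6 other scalings in Sf1-Cre, at 0.05 to 2.76, and passed under 5. It passed under 5 in the Dhh-Cre-labelled arrays too and turned to -0.55 under the median level of the peritubular and endothelial lists. The difference between the mutant groups was 0.68 (95% interval 0.06 to 1.29, adjusted p = 0.11). A second Inhbb probe set, at 2.60 to 3.56, was under the floor everywhere.

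Inhba, the gene of the other beta subunit, of inhibin A and activin A, was measured only near the floor. It read 2.94 and 2.19 in the control testes, 4.16 and 3.57 in the Dhh-Cre-labelled arrays, and 4.37, 6.24, 5.52 and 5.39 in Sf1-Cre. All 4 Sf1-Cre arrays were above the floor and above the other 4 arrays, and Sf1-Cre replicate 1 was the lowest of them. The rise in Sf1-Cre was at least 2.61-fold against the floor (2.82 ± 0.47 SE, adjusted p = 0.000735). The sign turned under 1 of the 6 other scalings (-0.54). In the Dhh-Cre-labelled arrays the difference, 1.30 ± 0.55 SE, did not pass (adjusted p = 0.0564) and both means were under the floor, so no fold is given. It passed when Sf1-Cre replicate 1 (adjusted p = 0.0132) or replicate 2 (adjusted p = 0.032) was left out of the fit. Under 5 of 6 other scalings the difference of the Dhh-Cre-labelled arrays from control was below 0, and under 1 of these it passed as lower. Sf1-Cre was above the Dhh-Cre-labelled arrays by 1.52 (95% interval 0.42 to 2.61, adjusted p = 0.0558), and by 1.45 to 2.28 under the other scalings, 4 of which gave a pass. The second Inhba probe set stayed at 1.57 to 2.04.

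Fst, the gene of follistatin, was not measured in control and was well above the floor in both mutant groups. The controls were at 3.58 and 3.56, under the floor, the Dhh-Cre-labelled arrays at 6.87 and 6.33, and Sf1-Cre at 7.29, 8.33, 8.19 and 7.65. Every Sf1-Cre array lay above both Dhh-Cre-labelled arrays, and these lay above the controls. Against the floor Fst was at least 14.6-fold higher in Sf1-Cre (4.30 ± 0.31 SE, adjusted p = 6.35e-06) and at least 6.05-fold higher in the Dhh-Cre-labelled arrays (3.03 ± 0.36 SE, adjusted p = 9.82e-05). Fst passed in Sf1-Cre under all 6 other scalings, at 0.94 to 3.64. It passed under 5 in the Dhh-Cre-labelled arrays and stood at -0.26 under the remaining one. These differences use control values under the floor, and the probe set passed the filter only through mutant arrays. They therefore do not rank Fst against the members measured in control. A second Fst probe set read 2.60 to 3.21, under the floor in all arrays.

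Fst was also the member that differed between the mutant groups. It was 2.41-fold higher in Sf1-Cre than in the Dhh-Cre-labelled arrays (1.27 ± 0.31 SE, adjusted p = 0.0237), and passed under all 6 other scalings at 1.20 to 2.03. The call rests on few arrays and was lost in 7 of 27 alternatives. It was lost with the replicate block (1.22, adjusted p = 0.0939), with the mean of the probe sets of a gene (0.69, adjusted p = 0.0629), at a threshold of 0.01 and without the 3 arrays described below as high in Spink8. It was also lost without Dhh-Cre replicate 1 (1.54, adjusted p = 0.0643), without Dhh-Cre replicate 2 (1.00, adjusted p = 0.142) and without Sf1-Cre replicate 3 (1.16, adjusted p = 0.0552). Over the alternatives its adjusted p ran from 0.000986 to 0.142.

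Fstl3 encodes a second activin-binding protein, follistatin-like 3, and had the opposite order of the mutant groups. The controls read 5.82 and 6.14, the Dhh-Cre-labelled arrays 8.86 and 8.34, and Sf1-Cre 8.11, 7.98, 7.83 and 7.31. Here the Dhh-Cre-labelled arrays lay above every Sf1-Cre array, and both groups above the controls. Fstl3 rose 3.55-fold in Sf1-Cre (1.83 ± 0.26 SE, adjusted p = 0.000286) and 6.16-fold in the Dhh-Cre-labelled arrays (2.62 ± 0.30 SE, adjusted p = 8.72e-05). Under the other scalings it ranged from -1.53 to 1.18 in Sf1-Cre and from -0.67 to 1.81 in the Dhh-Cre-labelled arrays. It passed as higher under 2 and 3 of 6, and 1 of 6 turned the sign in each. The turned value passed as lower in Sf1-Cre and did not pass in the Dhh-Cre-labelled arrays. The difference between the mutant groups was -0.80 (95% interval -1.40 to -0.19, adjusted p = 0.0642), and passed under 0 of the 6.

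Amh could not be compared at this sensitivity. Its levels were 2.52 and 2.46 in the control testes, 3.95 and 3.73 in the Dhh-Cre-labelled arrays, and 3.41, 3.13, 3.41 and 2.81 in Sf1-Cre, all under the floor. No fold is given.

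Amhr2, the receptor gene, had 3 tested probe sets. The one that is not of the x type, 1427989_at, read 8.91 and 9.01 in the control testes, 11.02 and 10.75 in the Dhh-Cre-labelled arrays, and 9.86, 10.38, 10.72 and 10.46 in Sf1-Cre. Both mutant groups lay above the controls, the Dhh-Cre-labelled arrays highest, and Sf1-Cre replicate 1 was the lowest of its group. The differences were 1.39 ± 0.24 SE in Sf1-Cre (2.62-fold, adjusted p = 0.000782) and 1.92 ± 0.27 SE in the Dhh-Cre-labelled arrays (3.78-fold, adjusted p = 0.000284).

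The remaining Amhr2 probe sets carry the suffix of sets whose probes can also match other transcripts. The probe set 1438967_x_at read 10.74 and 10.41 in the control testes, 12.01 and 11.88 in the Dhh-Cre-labelled arrays, and 11.53, 11.84, 12.05 and 11.79 in Sf1-Cre. The mutant groups overlapped there, and differed from control by 1.23 ± 0.18 SE (adjusted p = 0.000391) in Sf1-Cre and 1.37 ± 0.21 SE (adjusted p = 0.00048) in the Dhh-Cre-labelled arrays. The probe set 1457021_x_at read 11.52 and 11.60, then 12.85 and 12.82, then 12.43, 12.45, 12.46 and 12.59 in the same order. Its differences were 0.92 ± 0.13 SE (1.90-fold, adjusted p = 0.000291) and 1.27 ± 0.15 SE (2.42-fold, adjusted p = 0.00011), with no overlap between groups.

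The direction of Amhr2 depended on the scaling. In Sf1-Cre, 3, 4 and 4 of the 6 other scalings placed the 3 probe sets below control, and in the Dhh-Cre-labelled arrays 2, 5 and 5 did. Of these lower values 1, 2 and 4 passed in Sf1-Cre, and 1, 1 and 2 in the Dhh-Cre-labelled arrays. The differences of the 3 probe sets between the mutant groups were -0.53, -0.14 and -0.35, with adjusted p of 0.15, 0.631 and 0.0986. Under the other scalings 1, 3 and 1 of the 6 turned them above 0. The 95% intervals as deposited ran from -1.07 to 0.02, from -0.57 to 0.29 and from -0.65 to -0.04.

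**Figure D2:**
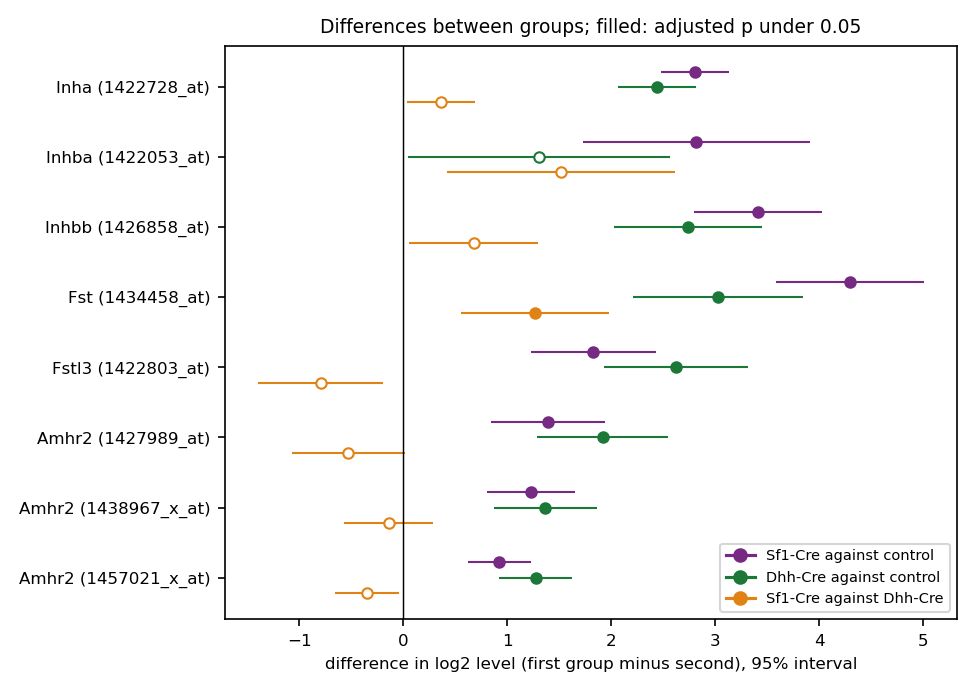
Difference in log2 level between groups (horizontal axis, first group minus second) for the 8 tested probe sets, with 95% intervals from limma. Filled points pass at adjusted p under 0.05. Fst alone is filled in the comparison of the mutant groups, and Inhba alone is open in the Dhh-Cre-labelled arrays against control.

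**Figure D3:**
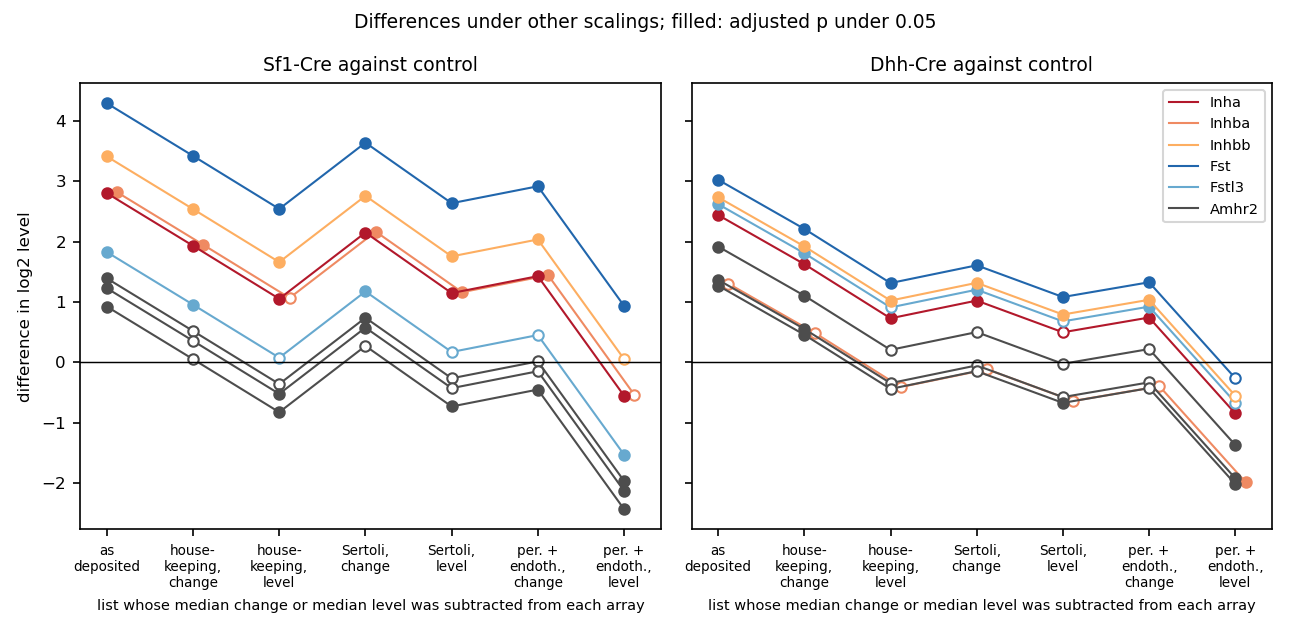
The same log2 differences from control (vertical axis) as deposited and after centring on 3 lists of genes, by the median change or the median level of each list. Each line is 1 probe set, 3 of them for Amhr2, and filled points pass at adjusted p under 0.05. The Inhba points are shifted to the right to keep them visible. The Fst and Inhba lines start from control levels under the floor. The order of the lines is the same at each setting because a centring moves all genes of an array by the same amount.

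Differences between members within an array do not move with any such centring. Only how such a difference changes between groups can be read, because levels of different probe sets are not on a common scale. For each pair, the log2 levels were subtracted within each array and the group means compared by an exact permutation test, 2-sided. With 4 against 2 arrays the exact permutation p cannot go below 0.0667, and with 2 against 2 it cannot go below 0.3333. Over the 22 comparisons computed, 18 of them added after the data were seen, no adjusted p was under 0.122. In most of the 22 the groups did not overlap, so a separation by itself does not single out a pair.

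The difference between the inhibin B subunit genes did not separate the groups. Inha minus Inhbb was 2.27 and 3.02 in the control testes, 2.45 and 2.26 in the Dhh-Cre-labelled arrays, and 2.40, 1.91, 1.80 and 2.04 in Sf1-Cre. All groups overlapped, and the exact permutation p was 0.133 for Sf1-Cre against control, 0.667 for the Dhh-Cre-labelled arrays against control and 0.267 between them. The 2 controls differed from each other by more than the group means did.

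The difference between Inha and Amhr2 did separate them. Inha minus Amhr2 (by 1457021_x_at, the probe set of Amhr2 with the highest mean) was -1.78 and -1.81 in the control testes, -0.53 and -0.71 in the Dhh-Cre-labelled arrays, and 0.02, 0.11, 0.20 and 0.02 in Sf1-Cre. No groups overlapped. The difference was 1.88 higher in Sf1-Cre than in control (exact permutation p = 0.0667, the smallest possible) and 1.17 higher in the Dhh-Cre-labelled arrays (exact permutation p = 0.333, the smallest possible). Inhbb minus Amhr2 ran the same way, at -4.05 and -4.83, then -2.98 and -2.97, then -2.38, -1.81, -1.60 and -2.03. The sizes depend on the Amhr2 probe set, and 1457021_x_at is one whose probes can also match other transcripts. It rose from control by 0.92 in Sf1-Cre and 1.27 in the Dhh-Cre-labelled arrays, where 1427989_at rose by 1.39 and 1.92. With 1427989_at both pairs would therefore differ less from control.

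The difference between the follistatin genes separated the mutant groups. Fstl3 minus Fst was 2.00 and 2.02 in the Dhh-Cre-labelled arrays, and 0.82, -0.36, -0.36 and -0.34 in Sf1-Cre. It was 2.06 lower in Sf1-Cre (exact permutation p = 0.0667), and 1.96 to 2.36 lower with 1 array left out. The control was not used for this pair because Fst was under the floor there. Inha minus Fstl3 was 3.92 and 3.65 in the control testes, 3.45 and 3.76 in the Dhh-Cre-labelled arrays, and 4.34, 4.58, 4.83 and 5.30 in Sf1-Cre. The first 2 groups overlapped, and Sf1-Cre lay above both.

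**Figure D4:**
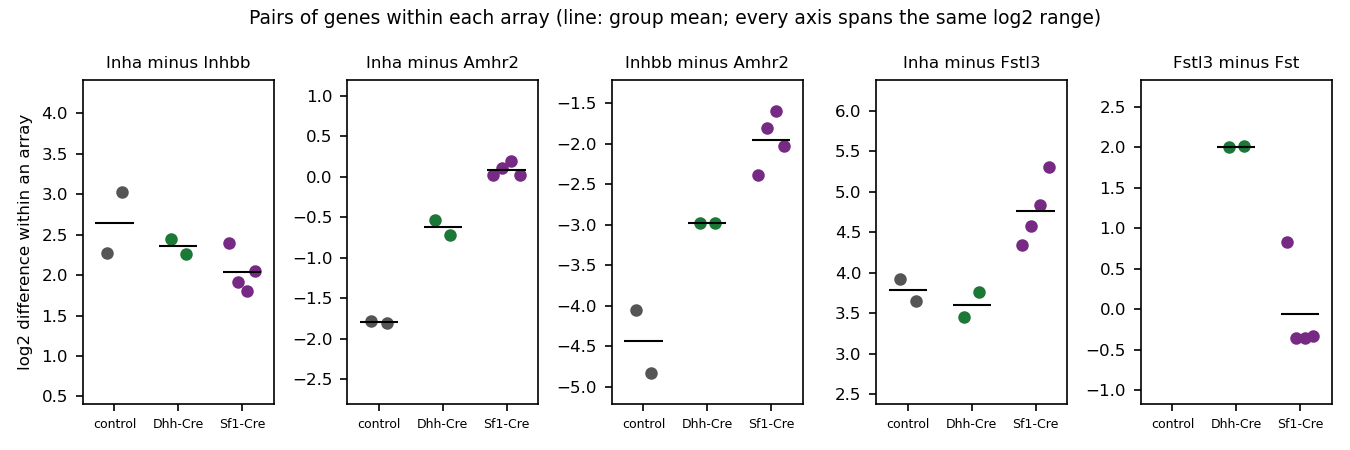
Log2 difference between 2 genes within each array (vertical axis), for 5 pairs and 3 groups. Points are arrays and lines are group means, and all axes span the same range. Inha minus Inhbb overlaps between groups, Inha minus Amhr2 separates all 3, and Fstl3 minus Fst is 2.00 and 2.02 in the Dhh-Cre-labelled arrays against -0.36 to 0.82 in Sf1-Cre. No control is shown for the last pair.

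Sf1-Cre replicate 1 stood at 1 end of its group for most members. It had the lowest Inha, Inhba, Inhbb and Fst, the lowest of all 3 Amhr2 probe sets and the highest Fstl3. It also had the highest level of Spink8, a gene of the epididymis, at 12.05. Spink8 was at 11.55 in Dhh-Cre replicate 1 and 10.49 in Sf1-Cre replicate 3, and at 3.11 to 6.87 in the other 5 arrays. Without those 3 arrays, a choice made after the data were seen, all 8 member probe sets still passed in Sf1-Cre against control and 7 in the Dhh-Cre-labelled arrays. Fst then differed between the mutant groups by 1.66 (adjusted p = 0.0578). Without Sf1-Cre replicate 1 alone, 4 members passed between the mutant groups. These were Fst, Inhba (1.85, adjusted p = 0.00976), Inhbb (0.84, adjusted p = 0.0381) and Fstl3 (-0.90, adjusted p = 0.0468).

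Most genes of a list of receptors of activin, TGF-beta and bone morphogenetic proteins were higher as deposited. The list is wider than the receptors of the members, and Acvr2a, Acvr2b and Acvr1b are given separately below. Lists of pathway genes were read with 1 probe set a gene, over 13801 genes, of which 46.6% were called higher and 33.2% lower in Sf1-Cre, and 49.1% and 30.5% in the Dhh-Cre-labelled arrays. In the comparison of the mutant groups 12.9% were higher in Sf1-Cre and 11.8% lower. The median difference over all genes was 0.34 and 0.535. Of 13 receptor genes, 11 were called higher and 0 lower in Sf1-Cre (median 2.38, or 1.87 with values under the floor set to it), and 11 higher and 1 lower in the Dhh-Cre-labelled arrays (median 2.18, or 1.84). The list median turned below 0 under 1 of the 6 other scalings in each group.

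Tgfbr3, the betaglycan gene, rose from 5.85 ± 0.43 (SD, n = 2) in control to 9.36 ± 0.10 (SD, n = 4) in Sf1-Cre (11.4-fold, adjusted p = 1.06e-05) and to 8.70 ± 0.62 (SD, n = 2) in the Dhh-Cre-labelled arrays (7.17-fold, adjusted p = 7.21e-05). Acvr1c, the gene of the type I receptor ALK7, was at least 9.26-fold higher in Sf1-Cre and at least 6.35-fold higher in the Dhh-Cre-labelled arrays. Tgfbr2, a type II receptor of TGF-beta, rose by 4.07 in Sf1-Cre and 3.06 in the Dhh-Cre-labelled arrays. Bmpr2, a type II receptor of bone morphogenetic proteins, rose by 1.99 and 1.84. Of these 4, Acvr1c and Tgfbr2 passed in Sf1-Cre under all 6 other scalings, Tgfbr3 passed under 5, and Bmpr2 passed as higher under 3 and as lower under 1. In the Dhh-Cre-labelled arrays they passed as higher under 5 (Acvr1c), 5 (Tgfbr2), 4 (Tgfbr3) and 1 (Bmpr2) of the 6, and Bmpr2 passed as lower under 1.

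The type II receptors of activin itself moved less. These genes were picked after their values were seen. Acvr2a rose by 0.70 ± 0.12 SE in Sf1-Cre (adjusted p = 0.000981) and by 0.54 ± 0.14 SE in the Dhh-Cre-labelled arrays (adjusted p = 0.00783). Acvr2b was at 3.64 ± 0.14 (SD, n = 2) in control, at 3.81 ± 0.09 (SD, n = 4) in Sf1-Cre and at 4.77 ± 0.56 (SD, n = 2) in the Dhh-Cre-labelled arrays, the only group with a mean above the floor (adjusted p = 0.00378 against control). Acvr1b, the gene of the type I receptor ALK4, was -0.35 from control in Sf1-Cre (adjusted p = 0.0722) and fell by 0.48 in the Dhh-Cre-labelled arrays (adjusted p = 0.039). Under the other scalings Acvr2a ranged from -2.66 to 0.05 in Sf1-Cre and from -2.75 to -0.27 in the Dhh-Cre-labelled arrays.

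The RNA levels of Smad genes changed in mixed directions as deposited. Of 7 tested, 4 were called higher and 2 lower in Sf1-Cre and 4 and 1 in the Dhh-Cre-labelled arrays, and the list median of 0.65 and 0.94 lay below 0 under 5 of 6 other scalings in each. Smad3, which carries activin and TGF-beta signals, rose by 3.66 in Sf1-Cre and by 3.91 in the Dhh-Cre-labelled arrays. It was higher than control under all 6 other scalings in both groups. Smad6, an inhibitory Smad, was at 7.53 ± 0.02 (SD, n = 2) in control and under the floor in both mutant groups, at least 11.6-fold lower, and stayed lower under all 6. Smad7, also inhibitory, rose by 0.95 and 1.50, and Smad4, the partner shared by all routes, by 0.98 and 1.17. Both lay below control under 4 of the 6 in Sf1-Cre. In the Dhh-Cre-labelled arrays they did so under 4 (Smad7) and 5 (Smad4).

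Ligands of the family beyond the members split in both directions. Of 17 on the array 10 were tested, with 7 higher and 3 lower in Sf1-Cre and 5 and 2 in the Dhh-Cre-labelled arrays. The list medians, 0.99 and 1.17 (0.42 and 0.36 with values under the floor set to it), turned below 0 under 4 and 5 of the 6 other scalings. Tgfb2 was at least 5.60-fold higher in Sf1-Cre and at least 3.68-fold in the Dhh-Cre-labelled arrays, and Bmp4 at least 2.54-fold and 2.40-fold. Gdf9, known from oocytes, fell by 1.83 in Sf1-Cre and by 2.56 in the Dhh-Cre-labelled arrays, and Bmp8a, known from germ cells, was at least 2.37-fold lower in both. The rises of Tgfb2 and Bmp4 turned below 0 under 1 of the 6 other scalings in each group, and the falls of Gdf9 and Bmp8a passed under all 6. The beta subunit genes Inhbc and Inhbe, named after their values were seen, stayed at 1.28 to 2.16, under the floor.

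Among other extracellular antagonists, 5 of 7 tested were higher and 0 lower in each comparison with control, and the list medians of 1.60 and 2.74 (1.60 and 2.00 with the floor) turned below 0 under 3 of the 6 other scalings in Sf1-Cre and 1 in the Dhh-Cre-labelled arrays. Twsg1, a binding protein of bone morphogenetic proteins, rose 9.57-fold in Sf1-Cre and 6.69-fold in the Dhh-Cre-labelled arrays. Bmper and Nbl1, of the same function, were at least 5.10-fold and 4.46-fold higher in Sf1-Cre. Fstl1, a follistatin-like gene, followed Fstl3 in its order. It read 5.69 ± 0.09 (SD, n = 2) in control, 8.47 ± 0.18 (SD, n = 2) in the Dhh-Cre-labelled arrays and 7.30 ± 0.25 (SD, n = 4) in Sf1-Cre, with a difference of -1.17 between the mutant groups (adjusted p = 0.00488). In Sf1-Cre 1 of 6 other scalings turned Twsg1, Bmper and Nbl1 below control, and 3 turned Fstl1.

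Of 8 genes that answer to Smads, 6 were higher and 1 lower in Sf1-Cre, and 5 higher and 0 lower in the Dhh-Cre-labelled arrays. The list medians, 1.15 and 1.10, turned below 0 under 4 and 5 of the 6 other scalings. Id3 and Id1, inhibitors of basic helix-loop-helix factors, were at least 10.2-fold and 4.77-fold higher in Sf1-Cre. Ccn2, a matrix protein gene, rose by 1.23 and 1.32 and Ski, a Smad corepressor, by 1.07 and 1.13. In Sf1-Cre Id3 kept its direction under all 6 other scalings, Id1 under 5, and Ccn2 and Ski under 2. Between the mutant groups 0 of 8 passed by limma as deposited and under 5 of the 6 other scalings, and 8 of 8 passed as higher in Sf1-Cre with Sertoli centring by change.

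Genes known to regulate the members were followed as well. Of 15 tested, 11 were higher and 1 lower in Sf1-Cre and 12 and 2 in the Dhh-Cre-labelled arrays, and the list medians of 1.17 and 2.54 (1.17 and 1.53 with values under the floor set to it) turned below 0 under 4 and 1 of the 6 other scalings. Nr5a1 and Gata4, activators of Inha, Inhbb and Amh, rose 15.5-fold and 23.3-fold in Sf1-Cre and 8.22-fold and 17.6-fold in the Dhh-Cre-labelled arrays. Foxl2, the granulosa cell factor that acts on Fst, was under the floor in control (1.88 ± 0.10 SD, n = 2). It was at least 16.2-fold higher in Sf1-Cre and at least 2.88-fold higher in the Dhh-Cre-labelled arrays. Esr1, an oestrogen receptor gene, rose 14.1-fold and 10.7-fold. In Sf1-Cre all 4 passed under each of the 6 other scalings. Nr5a1 turned below 0 under 1 of them in the Dhh-Cre-labelled arrays. Between the mutant groups the 15 regulators split, with 5 called higher and 4 called lower in Sf1-Cre. The higher ones included Foxl2, by 2.50 (adjusted p = 0.00599), and Nr5a1, by 0.92 (adjusted p = 0.03). None of the 4 genes named here was among the lower ones.

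**Figure D5:**
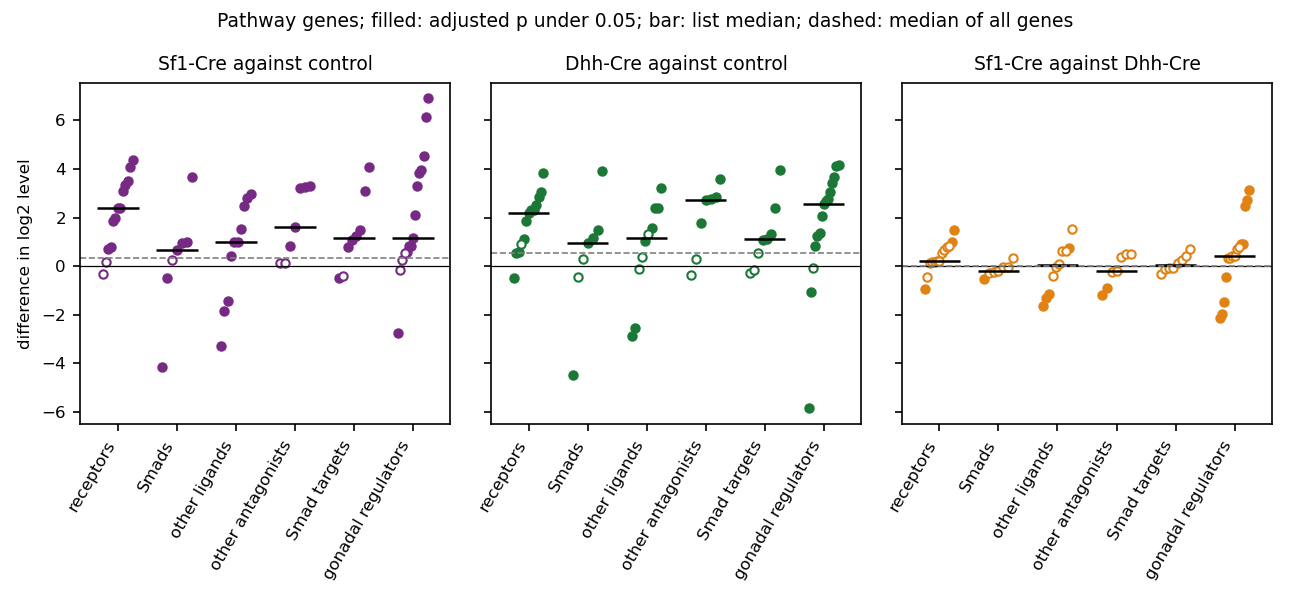
Difference in log2 level (vertical axis) of each tested gene of 6 pathway lists in the 3 comparisons, with the list median as a bar and the median of all 13801 genes as a dashed line. Filled points pass at adjusted p under 0.05. The receptor list lies mainly above the dashed line in both comparisons with control, at medians of 2.38 and 2.18, and near it between the mutant groups.

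Most markers of cells that make these proteins were called higher than control as deposited. Between the mutant groups Sertoli and granulosa markers went in different directions. The part of these cells in the results was not tested. Of 13 granulosa markers tested, 11 were higher and 1 lower in Sf1-Cre and 10 and 1 in the Dhh-Cre-labelled arrays, but only 3 of the 13 had a control mean at the floor or above, so most were tested through the mutant arrays alone. Their summed intensity was 548 to 608 in control, 2893 to 3710 in the Dhh-Cre-labelled arrays and 7524 to 12470 in Sf1-Cre. Foxl2, Foxl2os and Nr5a2, which define granulosa cells in this list, were under the floor in both controls and above it in every mutant array, while Esr2, Lgr5, Irx3 and Ihh were under it everywhere. The median of the granulosa list, 3.32 and 2.99 (3.02 and 2.20 with values under the floor set to it), turned below 0 under 1 of the 6 other scalings in each group. Of 17 Sertoli markers, 10 were higher and 3 lower in Sf1-Cre and 13 and 0 in the Dhh-Cre-labelled arrays, and their medians of 0.74 and 0.90 turned below 0 under 5 of the 6 in each group. Their sum was 27518 to 28979 in control, 51261 to 51725 in the Dhh-Cre-labelled arrays and 34754 to 40480 in Sf1-Cre. Between the mutant groups 3 Sertoli markers were higher and 10 lower in Sf1-Cre, and 6 granulosa markers were higher and 0 lower. Leydig markers, of the cells that make androgens, were higher too, 7 of 8 in Sf1-Cre and 6 of 8 in the Dhh-Cre-labelled arrays, with medians that turned below 0 under 1 and 2 of the 6. Their sum was 8160 to 8361 in control, 23645 to 28453 in the Dhh-Cre-labelled arrays and 25566 to 39104 in Sf1-Cre. Markers of other cells were higher as well. Of 15 macrophage markers 14 were higher and 1 lower in each group, with medians of 4.27 and 3.50 that stayed above 0 under all 6 other scalings. Their sum was 12004 to 16180 in control, 28448 to 28608 in the Dhh-Cre-labelled arrays and 35244 to 40459 in Sf1-Cre. Endothelial markers (7 of 8 in each group), theca markers (5 and 4 of 5) and peritubular markers (9 of 11 in each, with 1 lower) were also called higher, with medians that turned below 0 under 1 to 4 of the 6. Fshr and Kitl stand in both the Sertoli and the granulosa list.

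The genes most like each member over the 8 arrays were named by Pearson's r of log2 levels, as a description. All arrays share the wide gap between control and mutant testes, and for that reason many genes score high. They were Asb13 (0.999), Trim56 (0.999) and H2-Eb1 (0.999) for Inha, where 2764 genes reached 0.95. For Inhbb they were Selenop (0.998), Ablim1 (0.997) and Ypel2 (0.997), with 2180 genes at 0.95. For Fst they were Rps26 (0.998), Clec4d (0.994) and Plcb3 (0.993), with 1195 such genes. Amhr2 was nearest to Nudt19 (0.997), Ralgapb (0.997) and Abcc1 (0.997), with 1577. Fstl3 had fewer such genes, 184, led by Zfp1 (0.990), Shbg (0.989) and Eif4a1 (0.988). Inhba had 19, led by Napepld (0.981), Pcdh8 (0.975) and Uroc1 (0.973).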

How the data were processed

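Testis RNA was hybridized to 1-colour oligonucleotide arrays, 1 per sample. The deposited intensity values are linear and were made by GCRMA, per the submitters' processing notes, of which the sources used here give no version or settings. Their log2 was taken here. Of 45101 probe sets, 34958 carry 1 gene symbol. Some values, in 5791 probe sets, were deposited in exponent form with 3 digits.

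Using limma 3.58.1 under R 4.3.3, group differences were fitted with 3 group means over all 8 arrays (5 residual and 3.01 prior degrees of freedom) over 25761 probe sets with at least 2 arrays at log2 4, 2-sided, with Benjamini-Hochberg adjustment. Lists used the probe set with the highest mean of each gene. Folds against a group mean under log2 4 are lower bounds. Precision is limited by the number of arrays. On simulated data for Sf1-Cre against control over 25761 probe sets, 94% of changes of log2 2 and 29% of changes of log2 1 were recovered, with 3 false calls. Far fewer probe sets were changed there than were called in the data, and noise was drawn independently for each. The adjustment is stricter in that setting, so these shares check the fit and do not give its sensitivity in these data.

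Members and lists were chosen with earlier results of these data known. Named genes are all members, Dmrt1, per pathway list up to 4 genes by smallest p for Sf1-Cre over control, plus any called in opposite directions in the mutant groups, and per member the 3 genes of highest correlation; provisional symbols were passed over. Some genes of the lists are not analysed here. For same-numbered arrays of replicates 1 and 2, the r of deviations from group means ran from -0.177 to 0.258. In a group of 2 arrays the deviations mirror each other, so these values cannot settle whether the numbers pair the arrays. Replicate numbers were used as a block only as an alternative. Alternatives changed the scaling, the floor and filter, the moderation, weights, samples, probe sets and thresholds. The labels call the samples biological replicates.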

Additional observations from a re-analysis of the deposited data

Results flagged for a closer look

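Among the differences within an array, Fstl3 minus Fst in Sf1-Cre replicate 1 stood apart from its group, at 0.82 against -0.36 to -0.34 in the other 3 Sf1-Cre arrays. The gap was picked out for its size from many such differences, and its cause was not tested.

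Sf1-Cre differed from the Dhh-Cre-labelled arrays by limma for Dmrt1, for Fst among the members and for 6 of the 24 pathway genes named, where 12.9% of all genes were called higher and 11.8% lower. The log2 difference was -2.64 for Dmrt1, 1.27 for Fst, 1.00 for Tgfbr2, -0.55 for Smad7, 0.73 for Gdf9, -1.17 for Fstl1, 0.92 for Nr5a1 and 2.50 for Foxl2. Smad7 passed under 1 of the 6 other scalings and turned to 0.21 under another.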

How the results depend on the processing

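Counts and directions depended mainly on the scaling and on single arrays. As deposited, 8 member probe sets passed in Sf1-Cre against control, 7 in the Dhh-Cre-labelled arrays and 1 between them. In Sf1-Cre the count was 5 with housekeeping centring by level (3 higher, 2 lower), Sertoli centring by level (4 higher, 1 lower), housekeeping centring by change (5 higher), peritubular and endothelial centring by change (4 higher, 1 lower) and the mean of a gene's probe sets (5 higher of 5 tested). Peritubular and endothelial centring by level gave 6, of which 1 was higher and 5 lower. In the Dhh-Cre-labelled arrays it was 3 with housekeeping centring by level (3 higher) and Sertoli centring by level (2 higher, 1 lower), and 4, all higher, with Sertoli or peritubular and endothelial centring by change. Peritubular and endothelial centring by level gave 5, all lower. Between the mutant groups it was 3 and 5 with Sertoli centring by level and by change, 2 with housekeeping and 4 with peritubular and endothelial centring by change, all higher in Sf1-Cre. It was 2 with values under log2 4 set to 4, 4 with trended robust moderation and 3 with array weights, each with 1 lower in Sf1-Cre. It was 0 with the mean of probe sets, at adjusted p under 0.01, with the replicate block and without the 3 arrays high in Spink8. With 1 array left out it ran from 0 (without Dhh-Cre replicate 1 or 2, or Sf1-Cre replicate 3) to 4 (3 higher and 1 lower, without Sf1-Cre replicate 1), and stayed at 8 in Sf1-Cre and at 7 to 8 in the Dhh-Cre-labelled arrays. With the replicate block, 8 and 7 passed against control, and Fst between the mutant groups was 1.22 (adjusted p = 0.0939). Whether the replicate numbers pair the arrays is not known. Over the whole array the 19983 and 20081 probe sets called against control became 11019 and 10986 genes with 1 probe set a gene, and 10366 and 10399 with the mean of probe sets, where fewer features were tested. The 5508 called between the mutant groups became 3402 and 3357 at that level, 2089 at adjusted p under 0.01, 3428 with at least a 2-fold change, 1862 and 3272 without Dhh-Cre replicate 1 or 2, 1151 without the 3 arrays high in Spink8 and 16666 with Sertoli centring by change.

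Directions turned under centring only, apart from 2 of the within-array differences. Values for Amhr2 follow the order 1427989_at, 1438967_x_at and 1457021_x_at. In Sf1-Cre against control, centring by level on the peritubular and endothelial lists gave -0.54 (Inhba), -0.55 (Inha), -1.53 (Fstl3) and -1.97, -2.13 and -2.43 (Amhr2). Amhr2 was -0.36, -0.52 and -0.83 with the housekeeping level, -0.27, -0.43 and -0.73 with the Sertoli level, and -0.15 and -0.45 in the last 2 with the peritubular and endothelial change. In the Dhh-Cre-labelled arrays the peritubular and endothelial level gave -1.99 (Inhba), -0.85 (Inha), -0.67 (Fstl3), -1.74 (Dmrt1), -0.55 (Inhbb), -0.26 (Fst) and -1.37, -1.92 and -2.02 (Amhr2). The housekeeping level gave -0.41 (Inhba), -0.16 (Dmrt1) and -0.35 and -0.44 (the last 2 Amhr2). The Sertoli level gave -0.64 (Inhba), -0.39 (Dmrt1) and -0.025, -0.58 and -0.67 (Amhr2). The Sertoli change gave -0.12 (Inhba) and -0.052 and -0.15 (the last 2 Amhr2). The peritubular and endothelial change gave -0.40 (Inhba), -0.15 (Dmrt1) and -0.33 and -0.43 (the last 2 Amhr2). Between the mutant groups Amhr2 turned to 0.24, 0.63 and 0.42 with the Sertoli change, and its second probe set to 0.15 with the Sertoli level and 0.18 with the peritubular and endothelial change. These turns follow from the steps that each centring takes off. Inha minus Inhbb in the Dhh-Cre-labelled arrays against control ran from -0.67 to 0.078 with 1 array left out, and was 0.078 without control replicate 2. Inhbb minus Fstl3 in that comparison ran from -0.40 to 0.62, and was -0.13 without Dhh-Cre replicate 2 and -0.40 without control replicate 2.

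Levels under log2 4, as for Amh and for Inhba and Fst in the controls, limit what can be said of those genes.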
